A study of Mus musculus with 20 samples.

Results

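The comparison lay among the 5 left ventricle libraries of dnOGAh-Tg mice after 2 weeks of doxycycline food, 3 with a high and 2 with a low level of Oga RNA, of 20 libraries in the series. The libraries were chosen by 2 limits on measured Oga, above 20000 normalized read counts for high and below 10000 for low, with no Control library among them. The same split followed a code in the library titles: libraries 1 and 2 (low) carried F11, library 3 (high) carried F13 and libraries 4 and 5 (high) carried F14. Title code and Oga level could therefore not be told apart, and the sources used here do not say what the code stands for. All 5 carried the same labels otherwise, namely a dominant-negative O-GlcNAcase made in the heart and switched on through doxycycline in the food. The sources used here name neither the promoter that restricts it to the heart nor the strain and age of the mice. No label states that every library comes from its own mouse, so p-values measure the spread between libraries. Beside them the text uses 5 Control libraries of 2 weeks (code F11 in libraries 1 and 2, and F14 in libraries 3, 4 and 5), and 5 Control and 5 dnOGAh-Tg libraries of 24 weeks.

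O-GlcNAc is a sugar that the enzyme OGT attaches to serine and threonine of proteins in the nucleus, the cytoplasm and mitochondria, and that O-GlcNAcase, the product of Oga, removes. A dominant-negative form of O-GlcNAcase is meant to block removal, so that the sugar stays on its proteins. In heart muscle the modification responds to nutrients and stress and is found on transcription factors, proteins of the contractile apparatus and proteins that handle calcium.

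Oga (ENSMUSG00000025220, chromosome 19, 45738698 to 45772276 on GRCm39, minus strand) is the gene that chose the groups, and it is described here with no test. It stood at 8608 and 6406 normalized read counts in the low libraries, and at 56985, 61206 and 42127 in the high libraries. The lowest high library thus lay far above the highest low library, and none fell between. The high mean of 53440 ± 10022 (SD, n = 3) was 7.12 times the low mean of 7507. The 5 Control libraries ran from 2565 to 4269, so both low libraries also exceeded every Control library, at 2.43 and 1.81 times the Control mean. Whether the reads come from the mouse gene or from the transgene cannot be told from a count per gene.

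Of 15145 genes that reached a normalized count of 10 in 2 or more libraries of these 5, Oga left out, 1206 (7.96%) were higher and 1058 (6.99%) lower in the high libraries at an adjusted p under 0.05 (limma, two-sided, Benjamini-Hochberg over all genes tested). Genes past this threshold are said below to have risen or fallen, and every change is a log2 difference of high minus low on the scale log2(normalized count + 1), with its standard error (SE). Among them 577 (3.81%) were at least 2-fold higher and 266 (1.76%) at least 2-fold lower. In 7588 genes (50.1%) the values of the high and low libraries did not overlap. The counts depended on single libraries: without low library 1 they were 264 higher and 94 lower, without high library 3 they were 688 and 603, and without high library 5 they were 573 and 437. Of the genes called without low library 1, 260 higher and 94 lower were among those called with it.

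Transcript length moved with this comparison. Among the 13432 genes with a protein-coding transcript length, the median difference of high minus low fell from 0.34 in the shortest of 5 equal length groups to -0.34 in the longest. The share called higher fell from 19.3% to 1.86% over the same groups, and the share called lower rose from 1.67% to 17.9%. A trend of the same size ran between the 2 low libraries, where low 1 minus low 2 went from -0.32 to 0.39. Between the means of the 2 codes in the Control libraries it was 0.01 and 0.02. Such means can hide a trend between single Control libraries, which was not tested. When a smooth trend over length was taken out of each library, 782 genes were higher and 1074 lower, of which 619 and 622 were among the 1052 and 977 called before in genes with a length. Whether RNA quality differed between these libraries was not tested, and counts with the trend taken out are given beside most gene groups.

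**Figure D1:**
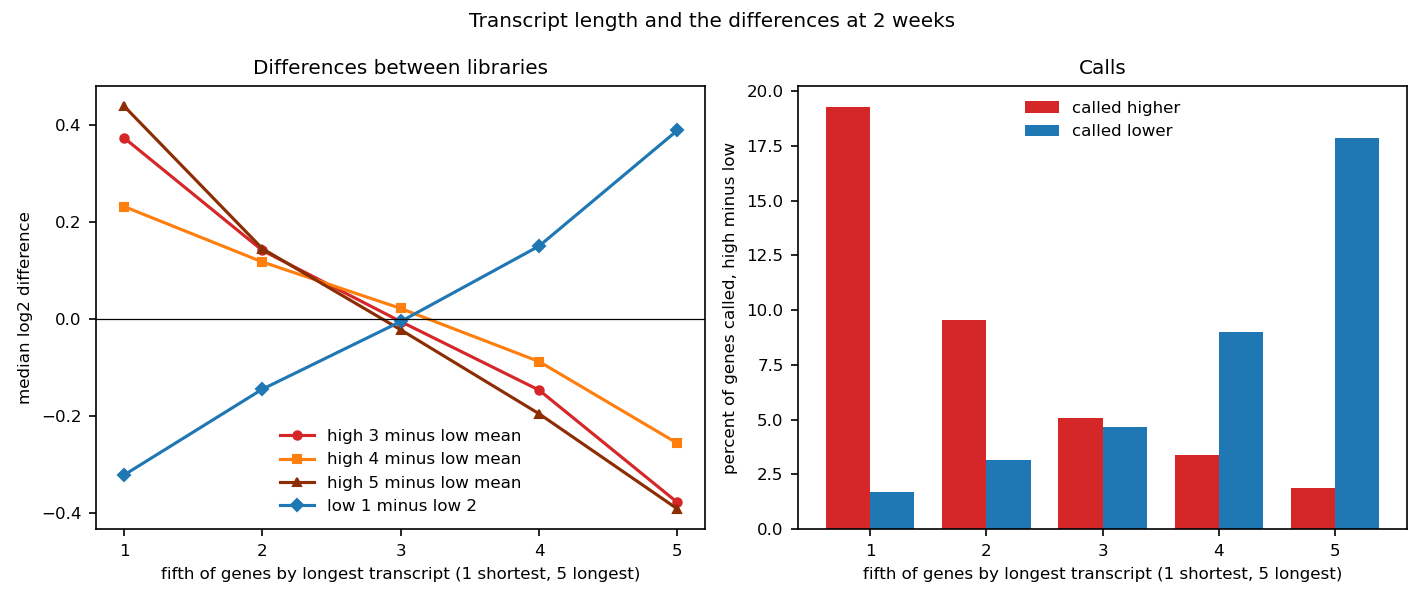
Left, median log2 difference between libraries for 5 equal groups of genes ordered by their longest transcript: each high library minus the mean of the low libraries, and low library 1 minus low library 2. Right, percent of genes in each group called higher or lower in high minus low; the shortest group has 19.3% higher and 1.67% lower, the longest 1.86% higher and 17.9% lower.

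The libraries held 24641225 to 50996272 reads assigned to genes, the most in low library 1, and 11.3% to 14.1% of the reads lay on the mitochondrial chromosome. Among markers of ventricular cardiomyocytes, Irx4, a transcription factor of the ventricle, stood at 800 to 935 in all 5 libraries. Myl2, the regulatory myosin light chain of the ventricle, stood at 146939 to 253189. The summed level of the 7 markers listed was 1.81e+06 to 1.91e+06 in the low and 1.58e+06 to 1.78e+06 in the high libraries. In the Control libraries that sum was 1.81e+06 to 2.08e+06. The atrial myosin light chain Myl7 was at most 5.70 in these 5 libraries. In Control library 2 it stood at 2652, with 1112 of the atrial calcium pump regulator Sln.

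The 12 largest rises included secreted, matrix and muscle proteins. Ankrd2, an ankyrin repeat protein of muscle that responds to stretch, stood at 16.4 and 8.03 in the low libraries and at 433, 254 and 374 in the high ones. Every high library was more than 10 times either low library, and the difference was 4.79 (SE 0.32, adjusted p = 4.81e-06). Star, which carries cholesterol into mitochondria for steroid synthesis, went from 29.4 and 13.05 to 609, 392 and 349 (4.41, SE 0.33, adjusted p = 8.27e-06). Spp1, the secreted matrix protein osteopontin, went from 7.92 and 8.03 to 166, 253 and 188 (4.48, SE 0.30, adjusted p = 4.68e-06). The Control libraries lay at 8.17 to 23.7 for Ankrd2, 13.6 to 26.2 for Star and 3.30 to 18.9 for Spp1, so the low libraries lay within or beside the Control range and the high ones above it.

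Lgals3, a galectin of macrophages and injured tissue, read 36.2 and 26.1 in the low libraries and 398, 461 and 459 in the high ones, 14.1 times the low mean (3.79, SE 0.22, adjusted p = 2.48e-06). Timp1, an inhibitor of matrix metalloproteinases, read 31.7 and 46.2 against 540, 463 and 565 (3.73, SE 0.22, adjusted p = 2.48e-06). Tnc, the matrix glycoprotein tenascin-C, read 54.9 and 44.2 against 575, 453 and 636 (3.45, SE 0.21, adjusted p = 2.92e-06). The high values of these 3 genes lay close together and clear of the low ones. Ccl8, a chemokine that draws monocytes, rose from 7.92 and 11.04 to 151, 208 and 260 (4.29, SE 0.31, adjusted p = 8.27e-06). Chil1, a chitinase-like secreted protein, and Gpr62, an orphan receptor, rose by 3.97 and 3.13.

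For 3 of the 12 largest rises the low libraries were close to 0, so the size of the difference depends on the count added before taking logs. Saa3, an acute-phase serum amyloid protein, read 0.566 and 0 in the low libraries and 92.4, 60.5 and 96.9 in the high ones (6.04, SE 0.50, adjusted p = 1.67e-05). Il1rn, the natural antagonist of the interleukin-1 receptor, read 0.566 and 1.00 against 87.7, 56.6 and 44.5 (5.12, SE 0.51, adjusted p = 9.62e-05). Cxcl10, a chemokine induced by interferon, read 2.83 and 1.00 against 57.9, 69.3 and 45.6 (4.38, SE 0.49, adjusted p = 0.000228). All 12 largest rises passed the threshold without low library 1, and all 12 with the length trend taken out.

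**Figure D2:**
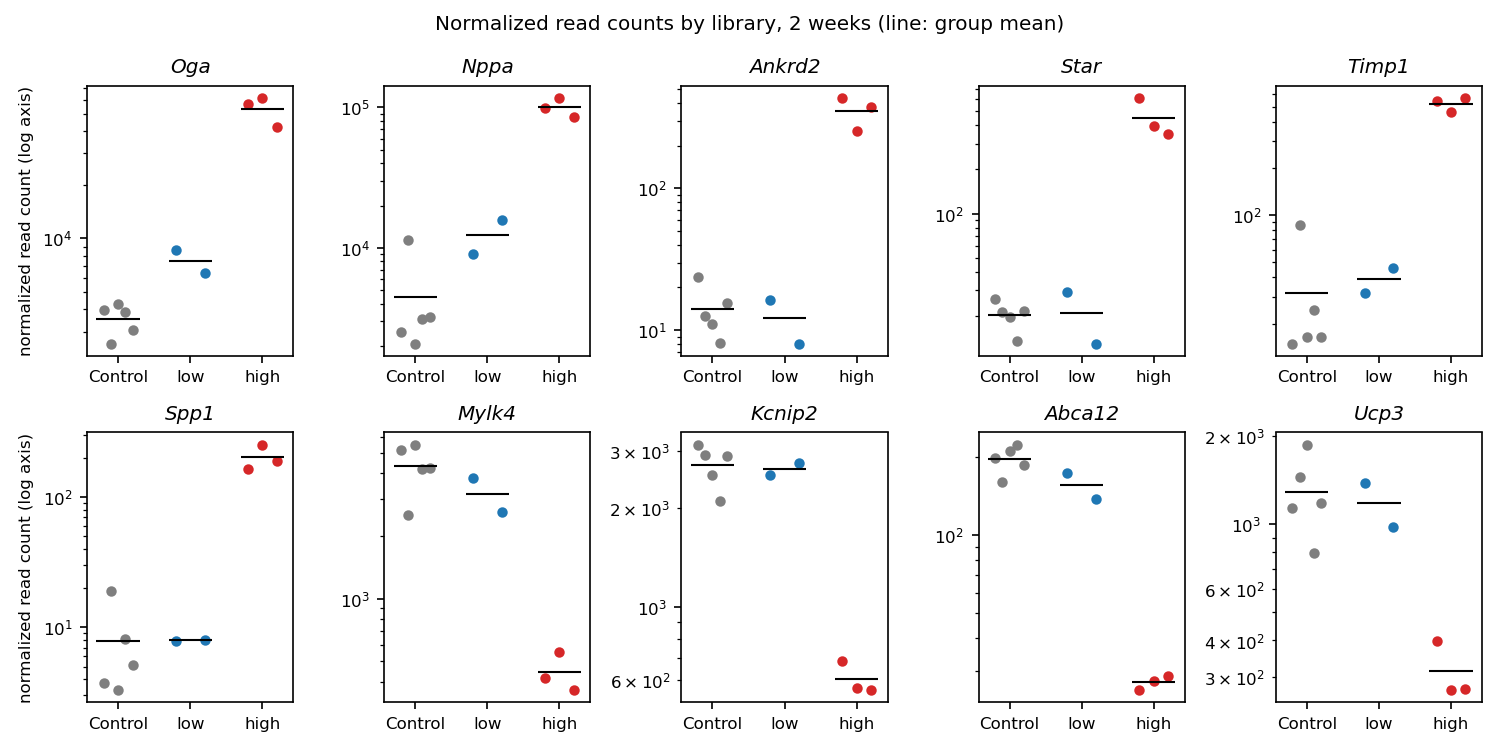
Normalized read counts (log axis) of Oga and 9 other genes in each library of 2 weeks, by group: 5 Control, 2 low and 3 high libraries, with a line at the group mean. The high libraries stand clear of both other groups in all 10 genes, above them from Oga to Spp1 and below them from Mylk4 to Ucp3. Oga chose the groups, and Ankrd2, Star, Timp1, Spp1, Mylk4 and Abca12 were picked for groups that do not overlap. Their separation of high from low was therefore set by the choice.

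The largest falls were less even. Mylk4, a kinase of the myosin light chain kinase family in muscle, fell from 3778 and 2604 in the low libraries to 415, 555 and 364 in the high ones (-2.84, SE 0.21, adjusted p = 8.27e-06). Abca12, a lipid transporter, fell from 174 and 137 to 25.2, 27.3 and 28.5 (-2.47, SE 0.29, adjusted p = 0.000309). The Control libraries lay at 2516 to 5477 for Mylk4 and 160 to 223 for Abca12, above every high library. Scd4, a fatty acid desaturase, fell from 78.0 and 98.3 to 28.0, 17.6 and 5.70 (-2.53, SE 0.52, adjusted p = 0.00951), and it shares sequence with other desaturases of its family, so its count is uncertain. H1f4, a linker histone, fell by 2.41 and Mrgprh, an orphan receptor, by 2.40 on the log2 scale.

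In 6 of the 12 largest falls, low library 1 read at least 2 times low library 2. These were Adnp and Zfp971, both zinc finger proteins, Atp7a, a copper transporter, Nt5c1a, a nucleotidase of muscle, Zc3h11a, an RNA-binding zinc finger protein, and Pm20d2, a dipeptidase. Nt5c1a, for example, stood at 443 in low library 1, 92.3 in low library 2 and 44.8, 74.2 and 13.7 in the high libraries (-2.46, SE 0.64, adjusted p = 0.0256). The hypoxia factor Hif3a completed the 12, with a difference of -2.62 (SE 0.72, adjusted p = 0.0306). Without low library 1, the falls of Mylk4 and Abca12 passed the threshold and the other 10 did not.

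Both natriuretic peptides rose. Nppa, the atrial natriuretic peptide that the adult ventricle makes again under load, stood at 9000 and 15734 in the low libraries and at 99561, 116150 and 84967 in the high ones, 8.10 times the low mean (3.06, SE 0.24, adjusted p = 1.09e-05). Nppb, the B-type peptide, went from 8123 and 15570 to 47512, 26013 and 28823 (1.55, SE 0.28, adjusted p = 0.00544). Both low libraries lay above the Control range of 4024 to 6711 for Nppb, and above 4 of the 5 Control libraries for Nppa, which read 2081 to 3243. Control library 2, the one with atrial markers, read 11414, above low library 1 and below low library 2. Uchl1, a ubiquitin hydrolase seen in stressed muscle, rose from 322 and 411 to 1012, 1095 and 1094 (1.55, SE 0.17, adjusted p = 0.000182). Of 23 fetal and hypertrophy genes tested, 7 rose, 2 fell and 14 did not pass, beside 7.96% and 6.99% of all genes. Their median was 0.29, beside 0.00 over all genes. With the length trend taken out 8 rose and 1 fell, and without low library 1 it was 4 and 1, Nppb among those lost (adjusted p = 0.0955).

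Other genes used as marks of a stressed mouse heart did not pass. Myh7, the slow myosin heavy chain, read 49814 and 39694 in the low and 37397, 35639 and 47195 in the high libraries, which overlapped (-0.16, SE 0.20, adjusted p = 0.602). Acta1, the skeletal actin, had a difference of 0.46 (SE 0.26, adjusted p = 0.225), and Myh6, the fast heavy chain, one of -0.62 (SE 0.29, adjusted p = 0.148). Neither passed the threshold, though Myh6 was called by edgeR (adjusted p = 0.0484) and DESeq2 (0.00329). The groups of Myh6 did not overlap, as in 50.1% of all genes. Among 24 sarcomere genes, 2 rose and 5 fell with a median of 0.17, beside 7.96% and 6.99% of all genes. With the length trend taken out 2 rose and only Mylk4 fell. Tpm2, a tropomyosin, rose by 1.04 (SE 0.23, adjusted p = 0.0117; 0.0616 without low library 2).

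Channels and calcium handling proteins shape the action potential and the calcium cycle of each beat. Of 33 genes tested, 16 fell, none rose and 17 did not pass, with a median of -0.61; 6.99% of all genes fell. Kcnip2, the subunit that carries the transient outward potassium channel to the membrane, fell from 2531 and 2759 in the low libraries to 689, 569 and 560 in the high ones, 0.229 times the low mean (-2.13, SE 0.16, adjusted p = 8.27e-06). Kcnv2, a modifier subunit of potassium channels, fell from 610 and 457 to 188, 206 and 169 (-1.49, SE 0.20, adjusted p = 0.000803). Abcc9, the sulfonylurea receptor of the ATP-sensitive potassium channel, fell from 12227 and 7667 to 3562, 4142 and 4437 (-1.26, SE 0.19, adjusted p = 0.00204). In all 3 genes the high libraries lay below every low and every Control library. Kcnip2 lies 8002 bases from Oga on chromosome 19 (45780278 to 45804500, GRCm39, minus strand), and whether its place beside Oga bears on its level was not tested.

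Atp2a2, the calcium pump SERCA2, stood at 504943 and 400358 against 257224, 280423 and 146187 (-1.04, SE 0.31, adjusted p = 0.0396), and its call ended when any of 4 of the 5 libraries was left out. Pln, the pump's inhibitor, stood at 178697 and 184149 against 120389, 118852 and 114296, with no overlap, as in 50.1% of all genes. Pln missed the threshold (-0.62, SE 0.21, adjusted p = 0.0611; 0.00778 with the length trend taken out). The list's median transcript of 4514 bases is longer than the 3178 bases of all genes, and with the length trend taken out 16 members fell. Without low library 1 the count was 3, namely Kcnip2, Kcnv2 and Abcc9.

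The next 3 lists covered mitochondrial fuel use. Of 34 genes of fatty acid uptake and oxidation 14 fell (median -0.46), of 27 of the TCA cycle and pyruvate oxidation 8 fell (median -0.32), and of 22 of ketone and branched-chain amino acid breakdown 8 fell (median -0.45). In these 3 lists no member rose, and 6.99% of all genes fell. Ucp3, a carrier of the inner mitochondrial membrane, fell from 1388 and 980 in the low libraries to 398, 270 and 272 in the high ones (-1.92, SE 0.21, adjusted p = 0.00023). Mlycd, which removes the malonyl-CoA that blocks fatty acid entry, fell from 3330 and 3812 to 1601, 1599 and 1385 (-1.22, SE 0.15, adjusted p = 0.000496). Dbt, a subunit of the complex that oxidises branched-chain keto acids, fell from 3332 and 2969 to 1765, 1797 and 1423 (-0.93, SE 0.16, adjusted p = 0.00357). The values of high and low did not overlap in any of the 3 genes, where 24.7% of all genes were lower in high without overlap.

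Smaller falls were seen in Cpt2, which frees fatty acids for oxidation inside mitochondria (-0.67, SE 0.15, adjusted p = 0.0123), in Got1, a transaminase of the malate-aspartate shuttle (-0.74, SE 0.16, adjusted p = 0.0104), and in Ppm1k, the phosphatase that activates branched-chain keto acid oxidation (-0.76, SE 0.16, adjusted p = 0.0107). Got1 read 18922 and 18760 in the low and 11494, 12098 and 10321 in the high libraries. Ppara, a nuclear receptor that drives fatty acid genes, read 919 and 297 against 125, 189 and 85.5, so that low library 1 stood far above low library 2 (-2.04, SE 0.40, adjusted p = 0.00768). With the length trend taken out the counts grew to 23 of 34, 16 of 27 and 15 of 22, and 1 fatty acid gene rose. Without low library 1 they shrank to 2, 0 and 1, with Ucp3, Mlycd and Dbt called and Cpt2, Got1, Ppm1k and Ppara not.

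Few genes of the respiratory chain were called. Of 57 nuclear genes of oxidative phosphorylation 1 rose and 1 fell, with a median of 0.23, beside 7.96% and 6.99% of all genes. Of 7 mitochondrially encoded protein genes none was called. The gene that rose was Ndufb3, a complex I subunit (0.60, SE 0.19, adjusted p = 0.0473), and the one that fell was Sdha, the catalytic subunit of complex II (-0.67, SE 0.19, adjusted p = 0.0324). Without low library 1 their adjusted p was 0.396 and 0.189. The list's transcripts are short, at a median of 1001 bases, and with the length trend taken out no member rose and 4 fell. Ppargc1a, a coactivator of mitochondrial genes, fell by 0.64 on the log2 scale (SE 0.17, adjusted p = 0.0265), a call that ended without low library 1 (adjusted p = 0.277), without high library 3 or 4 (0.0627 and 0.0511) and with the length trend taken out (0.0903).

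**Figure D3:**
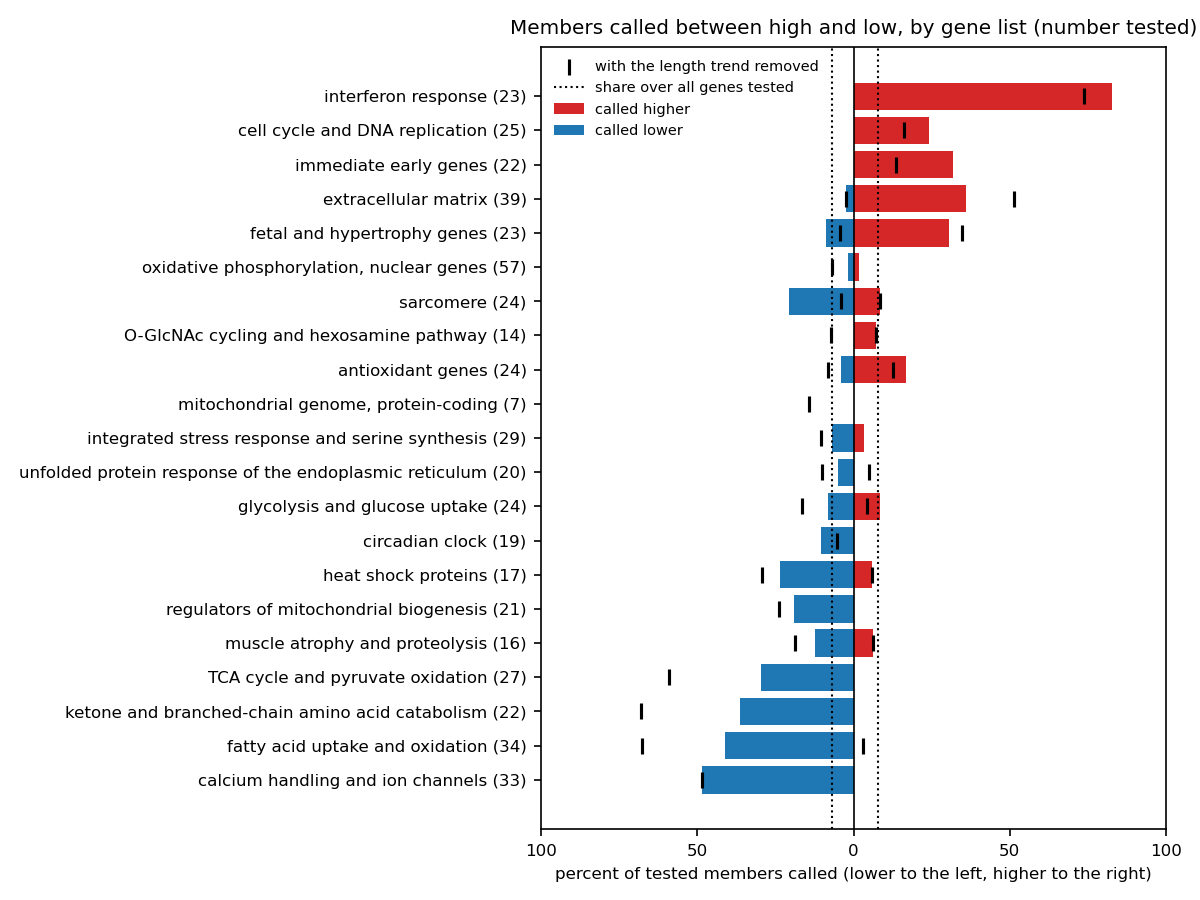
Percent of the tested members of each gene list called higher (right, red) or lower (left, blue) in high minus low, ordered by the list's median difference, with the number tested in parentheses. Dotted lines are the shares over all genes tested (7.96% and 6.99%), and black ticks the shares with the transcript length trend taken out; 19 of 23 interferon genes rose and 16 of 33 calcium and channel genes fell.

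Genes induced by interferon, which cells switch on against viruses and also in sterile injury, formed the list with the highest share of rises. Of 23 tested, 19 rose, none fell and 4 did not pass, with a median of 1.05, where 7.96% of all genes rose. Irf7, the factor that amplifies the interferon response, stood at 109 and 89.3 in the low libraries and at 381, 664 and 728 in the high ones, 5.97 times the low mean (2.52, SE 0.26, adjusted p = 0.000115). Ifit3 and Ifit1, antiviral proteins that bind RNA, stood at 54.3 and 47.2 against 174, 321 and 351 (2.39, SE 0.29, adjusted p = 0.000414), and at 45.2 and 61.2 against 166, 276 and 364 (2.26, SE 0.30, adjusted p = 0.000843). High library 3 was the lowest of the high libraries in all 3 genes and still lay above every low and Control library. Isg15, a ubiquitin-like protein, stood at 40.2 and 83.3 against 200, 277 and 318 (2.15, SE 0.30, adjusted p = 0.00112), and was named after its values were seen. Ifit3 has a near copy, Ifit3b, which rose by 2.698, and reads may be shared between them. With the length trend taken out 17 members rose, and without low library 1 it was 11.

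Many interferon-stimulated genes share a promoter element that interferon regulatory factors bind. The promoters of 4 of the risen genes are shown for this element, as windows of 300 bases (250 before and 50 after the start of the gene), read from RefSeq on GRCm38.p6, an older build than that of the counts. Capitals mark matches to GAAANNGAAA, or to its reverse complement TTTCNNTTTC, where N is any base and overlapping matches run together.
Ifit1 (chr19:34640639-34640938, plus strand): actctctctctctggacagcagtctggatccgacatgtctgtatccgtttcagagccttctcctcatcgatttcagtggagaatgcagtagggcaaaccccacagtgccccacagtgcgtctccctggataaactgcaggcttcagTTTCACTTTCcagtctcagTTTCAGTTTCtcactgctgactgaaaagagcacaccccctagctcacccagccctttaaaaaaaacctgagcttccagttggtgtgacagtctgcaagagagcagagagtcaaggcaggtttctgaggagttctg
Ifit3 (chr19:34583279-34583578, plus strand): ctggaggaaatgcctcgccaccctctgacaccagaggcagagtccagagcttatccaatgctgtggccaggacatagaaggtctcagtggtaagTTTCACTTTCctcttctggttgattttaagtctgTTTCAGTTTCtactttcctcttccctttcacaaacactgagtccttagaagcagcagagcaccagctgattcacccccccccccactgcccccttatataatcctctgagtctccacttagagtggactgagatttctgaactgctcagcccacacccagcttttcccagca
Isg15 (chr4:156200769-156201068, minus strand): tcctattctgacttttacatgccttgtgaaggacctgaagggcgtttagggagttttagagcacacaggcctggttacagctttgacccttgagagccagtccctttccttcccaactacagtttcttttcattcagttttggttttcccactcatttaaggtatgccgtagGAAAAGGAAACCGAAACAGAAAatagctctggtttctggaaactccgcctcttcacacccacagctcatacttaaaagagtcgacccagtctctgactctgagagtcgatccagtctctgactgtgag
Cxcl10 (chr5:92348840-92349139, minus strand): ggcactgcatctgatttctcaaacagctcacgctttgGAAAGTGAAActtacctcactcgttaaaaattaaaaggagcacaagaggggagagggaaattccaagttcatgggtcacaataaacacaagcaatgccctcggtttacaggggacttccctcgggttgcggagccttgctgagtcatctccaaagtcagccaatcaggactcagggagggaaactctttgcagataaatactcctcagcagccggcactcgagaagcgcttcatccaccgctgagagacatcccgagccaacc

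Ifit1 and Ifit3 each held 2 matches, Isg15 held 3 and Cxcl10 held 1, whereas the window of Irf7, not shown, held none. A window was found for 17 of the 23 interferon genes, and 10 of these (58.8%) held the motif, against 943 of 27025 genes in all (3.49%). Among the 16 risen members with a window it was 9 (56.2%). Of the 11 largest rises with a window 3 held it, Saa3, Spp1 and Cxcl10, and of the 12 largest falls none did. Of 2 other motifs searched on both strands, TGANTCA lay in 5 of the 17 interferon windows (29.4%) and 7.93% of all windows, and CTANNNNTAG in 0 of the 17 and 3.70% of all. A match in these letters is no measure of binding.

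**Figure D4:**
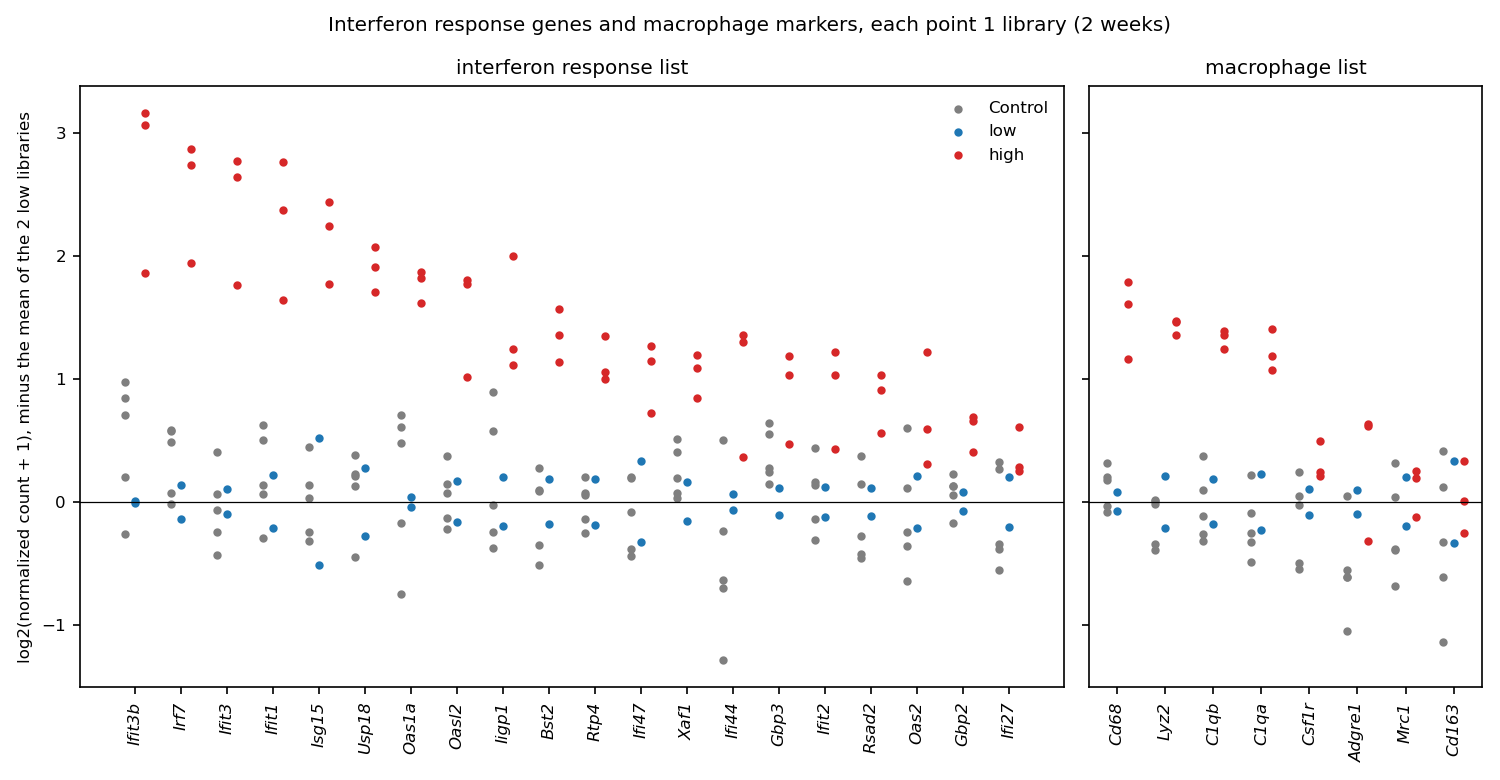
Each point is 1 library of 2 weeks, as log2(normalized count + 1) minus the mean of the 2 low libraries, for interferon response genes and the 8 macrophage markers tested; some members of the interferon list are not drawn. The high libraries (red) lie above every low (blue) and Control (grey) library for Irf7, Ifit3 and Ifit1, and for Cd68, Lyz2, C1qb and C1qa.

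Of 8 macrophage markers 4 rose and none fell, where 7.96% of all genes rose. The summed level of the 8 was 6081 to 7179 in the low, 13535 to 14282 in the high and 4873 to 6875 in the Control libraries. Lyz2, a lysozyme of macrophages, stood at 2189 and 2929 in the low and at 6999, 6495 and 7021 in the high libraries, 2.67 times the low mean (1.43, SE 0.16, adjusted p = 0.000246). C1qb, a complement subunit, stood at 567 and 731 against 1686, 1522 and 1653 (1.33, SE 0.16, adjusted p = 0.000453). Cd68, a lysosomal protein of macrophages, stood at 145 and 162 against 343, 470 and 532 (1.52, SE 0.21, adjusted p = 0.00107). C1qa rose too, whereas Csf1r, Adgre1, Mrc1 and Cd163 did not pass. The count was 4 under every omission of 1 library and with the length trend taken out. In tissue RNA, more cells of a type cannot be told apart from more RNA per cell, and the part of macrophages in the interferon and chemokine genes was not tested.

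Of 8 fibroblast markers 2 rose, where 7.96% of all genes rose. The summed level of the 8 was 81773 to 85071 in the low and 65024 to 91988 in the high libraries. None of 8 endothelial markers, 7 ventricular cardiomyocyte markers and 4 erythroid markers was called, and of 8 mural markers Abcc9 fell. With the length trend taken out 3 erythroid markers fell, and 1 mural marker rose and 1 fell. Of 5 lymphocyte markers tested Ccl5, a chemokine of T cells, rose from 9.05 and 10.04 to 33.6, 31.2 and 45.6 (1.83, SE 0.41, adjusted p = 0.0134; 0.0929 without low library 1 and 0.0567 without high library 5). The only neutrophil marker tested, Csf3r, did not pass.

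Matrix genes rose in part. Of 39 tested, 14 rose and 1 fell, with a median of 0.51, beside 7.96% and 6.99% of all genes. Beside Timp1 and Tnc, Postn, the matricellular protein periostin of activated fibroblasts, stood at 1452 and 1130 in the low and at 3851, 3267 and 7342 in the high libraries (1.82, SE 0.27, adjusted p = 0.00159). Col1a1, a chain of the main fibrillar collagen, stood at 5461 and 4380 against 6435, 8726 and 11784 (0.83, SE 0.22, adjusted p = 0.0262), and lay within the Control range of 2826 to 9247 in 2 of the 3 high libraries. Mfap5, a microfibril protein of fibroblasts, rose by 1.29 (SE 0.22, adjusted p = 0.00324). High library 5 read highest in all 3 genes. With the length trend taken out 20 matrix genes rose, and without low library 1 the count was 8, without Col1a1 (adjusted p = 0.0885; 0.11 without low library 2 and 0.0724 without high library 5).

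Of 22 immediate early genes, which stimuli switch on within minutes, 7 rose and none fell (median 0.54), where 7.96% of all genes rose. Myc, a growth regulator, stood at 77.5 and 78.3 against 319, 179 and 219 (1.56, SE 0.25, adjusted p = 0.00268), and Junb, an AP-1 subunit, at 602 and 652 against 2450, 1093 and 1244 (1.25, SE 0.27, adjusted p = 0.0111). High library 3 read highest in both. Of 25 cell cycle genes 6 rose (median 0.62), beside the same share of all genes. They were led by Ccne1, cyclin E1, at 48.1 and 46.2 against 145, 130 and 115 (1.44, SE 0.25, adjusted p = 0.00357). With the length trend taken out the counts were 3 and 4, and without low library 1 they were 2 and 2, Junb among those lost (adjusted p = 0.103).

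Among 24 antioxidant genes 4 rose and 1 fell, beside 7.96% and 6.99% of all genes. With the length trend taken out 3 rose and 2 fell. Gpx3, a secreted glutathione peroxidase, went from 5390 and 5849 to 12774, 12925 and 16243 (1.31, SE 0.16, adjusted p = 0.000531), and Gpx1, the cytosolic form, from 1851 and 2337 to 5041, 4608 and 4518 (1.18, SE 0.16, adjusted p = 0.000764). Slc16a3, a lactate exporter, went from 42.4 and 64.2 to 222, 216 and 163 (1.91, SE 0.26, adjusted p = 0.000913). It was 1 of 2 rises among 24 genes of glycolysis, where 2 fell, near the shares over all genes. With the length trend taken out 1 gene of glycolysis rose and 4 fell. The inducible heat shock proteins Hspa1a and Hspa1b fell by 2.18 and 2.09 on the log2 scale, but Hspa1a stood at 2311 and 1006 in the low libraries and at 62.7 to 1281 in the Control libraries, so that the high values of 502, 396 and 188 lay within the Control range. Hspa1a was not called without low library 1 (adjusted p = 0.0685). Both are near copies, so reads may be shared between them.

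The enzymes around O-GlcNAc were read next. Of 14 tested, Oga left out, only Renbp, an epimerase of amino sugars, rose, from 79.2 and 106 to 188, 189 and 218 (1.10, SE 0.22, adjusted p = 0.0085; 0.0929 without low library 1). Ogt stood at 3775 and 2904 in the low and at 2332, 2511 and 2202 in the high libraries, with no overlap, as in 50.1% of all genes. Ogt missed the threshold (-0.50, SE 0.16, adjusted p = 0.0521). It was called by edgeR (adjusted p = 0.0474), by DESeq2 (0.0216) and without low library 2 (0.0222). Gfpt1, which opens the hexosamine pathway, stood at 1147 and 719 against 840, 821 and 541, which overlapped (-0.33, SE 0.23, adjusted p = 0.334), and Gfpt2 had a difference of 0.19 (SE 0.18, adjusted p = 0.482). The 1 rise among the 14 lay near the 7.96% of all genes that rose. With the length trend taken out 1 of the 14 rose and 1 fell. Of 29 genes of the integrated stress response 1 rose and 2 fell, beside 7.96% and 6.99% of all genes. With the length trend taken out none rose and 3 fell. Among members not called, Mthfd2, a mitochondrial folate enzyme, had a difference of 0.37 (SE 0.24, adjusted p = 0.307) and Gdf15, a stress cytokine, one of -0.81 (SE 0.45, adjusted p = 0.222). Of 20 genes of the unfolded protein response none rose and Canx, a chaperone, fell (-0.61, SE 0.18, adjusted p = 0.0379), beside 7.96% and 6.99% of all genes. The call of Canx ended without high library 5 (adjusted p = 0.0871), with no filter (0.0644) and with all 10 libraries in 1 fit (0.0545). Without low library 1 the difference of Canx was -0.52, given as a size only since 1 low library is left. With the length trend taken out 1 gene of this list rose and 2 fell.

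Codes F14 and F11 could be compared in Control libraries, but no Control library of 2 weeks carried F13, the code of high library 3. Of 14793 genes tested there 0 were called, with 278 (1.88%) at an unadjusted p under 0.05 and 0 by edgeR. There were 3 against 2 libraries as in the main comparison, but the Control libraries differed among themselves. Control library 2 held atrial markers, and only Control library 5 had the gene model Gm37194 above 5 counts. A count of 0 calls can therefore not show that the codes are alike. The genes that rose with the high level had a median code difference of -0.01 in Control and those that fell one of 0.01. The test of the difference itself, high minus low less F14 minus F11 in Control, called 55 genes higher (0.363%) and 23 lower (0.152%). It called 10 of the 12 largest rises and 2 of the 12 largest falls, Mylk4 and Abca12. Since these genes were picked by high minus low, which is a part of this test, the test is no separate support for them. Its counts ran from 4 to 235 higher and from 4 to 82 lower when each of the 10 libraries was left out in turn, and without high library 3, the F13 library, they were 10 and 5.

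The low libraries were set against Control. Of 15064 genes 0 were called between the 2 low and the 5 Control libraries, with 472 (3.13%) at an unadjusted p under 0.05 and 0 by edgeR. With the F11 Control libraries alone 17 genes were higher, and without Control library 5, the only Control library of 2 weeks with the gene model Gm37194 above 5 counts, it was 24. Gm37194 stood at 96.6 to 218 in all 5 dnOGAh-Tg libraries and at 0 to 1.26 in Control libraries 1 to 4. The sources used here do not say what sets these libraries apart. Comparisons of dnOGAh-Tg libraries with the Control range, and the difference of code differences, can therefore not be fully told apart from this split. High minus low lies on 1 side of it. Of the 1206 risen genes, 969 had a low mean inside the Control range and 1005 had every high library above it. Of the 1058 fallen genes the numbers were 924 and, below it, 887. Of all 15145 genes 12181 had a low mean inside the Control range, a like share, while 2434 had every high library above it and 2601 every one below it. These comparisons share the low libraries with high minus low, so the values are given side by side only.

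The 24-week libraries, which the comparison did not use, share no library with it. There 1661 genes (11.3%) were higher and 1634 (11.1%) lower in dnOGAh-Tg than in Control, of 14675 tested. Of the 1135 risen genes tested at 24 weeks 486 (42.8%) were higher there and 4 lower, and of the 1053 fallen genes 514 (48.8%) were lower and 3 higher. The 486 shared rises were 29.3% of all rises at 24 weeks, and the 514 shared falls 31.5% of all falls. Over the risen genes the median difference at 24 weeks was 0.46, and over the fallen genes -0.45, beside -0.01 over all genes tested at both times. A length trend of the same direction ran at 24 weeks, with a median of 0.07 in the shortest length group and -0.09 in the longest. It was not taken out of the 24-week fit, and its part in the shared calls was not tested. Star had a difference of 5.14 at 24 weeks (SE 0.31, adjusted p = 6.54e-07), Ankrd2 one of 4.64 (SE 0.29, adjusted p = 1.04e-06), Nppa one of 3.97 and Mylk4 one of -4.33 (SE 0.20, adjusted p = 6.9e-08). Kcnip2, at -2.47, and Ucp3, at -2.09, were lower at 24 weeks too.

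**Figure D5:**
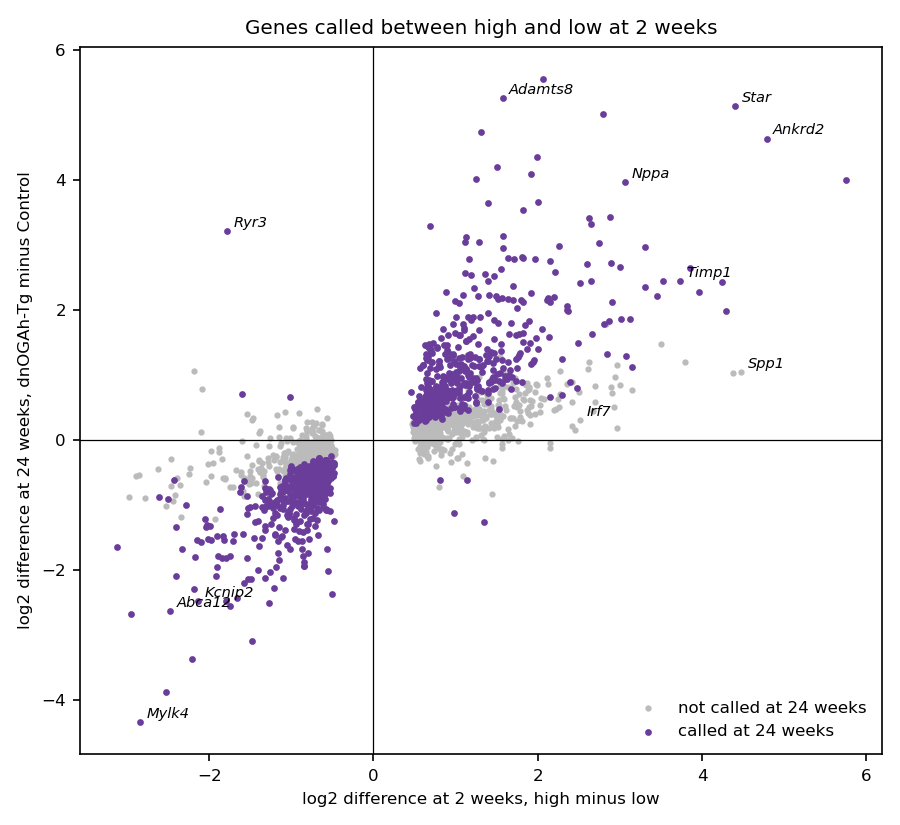
Each point is a gene called in high minus low at 2 weeks and tested at 24 weeks; the x axis is its log2 difference at 2 weeks, the y axis its log2 difference of dnOGAh-Tg minus Control at 24 weeks, and purple points were called at 24 weeks. Most called points lie in the upper right and lower left (486 higher at both, 514 lower at both), with Ryr3 alone at the upper left far from the rest.

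The difference between the times was not tested, and the counts at 24 weeks are given for the lists above. Of the 23 interferon genes 3 were higher at 24 weeks (median 0.22), near the 11.3% of all genes that were higher there. Of the 8 macrophage markers none was called in the unpaired fit. Irf7 had a difference of 0.31 there (SE 0.22, adjusted p = 0.328), Lyz2 one of 0.41 (SE 0.25, adjusted p = 0.278), Spp1 one of 1.06 (SE 0.47, adjusted p = 0.133) and Lgals3 one of 1.20 (SE 0.42, adjusted p = 0.0598). Ccl8 and Timp1 rose at 24 weeks, by 1.99 and 2.44. At 24 weeks 26 of 34 fatty acid genes, 21 of 27 TCA genes and 18 of 22 ketone and branched-chain genes fell. So did 22 of 33 calcium and channel genes, where 11.1% of all genes fell. Adamts8, a matrix protease, rose from 46.4 and 26.1 to 106, 90.8 and 122 at 2 weeks (1.57, SE 0.30, adjusted p = 0.00714) and had a difference of 5.26 at 24 weeks. Mthfd2 and Acta1, not called between high and low, rose by 3.21 and 2.84 at 24 weeks.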

How the data were processed

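Left ventricle RNA of Control and dnOGAh-Tg mice was sequenced after 2 and 24 weeks. The deposited tables hold a normalized signal per gene, which is the count of reads divided by a size factor of the library. Per the submitters' processing notes, reads were handled with Trim Galore 0.6.6, cutadapt 2.6, STAR 2.7.3a, the build GRCm39, R 4.0.3 and DESeq2. The sources used here name no read counter, annotation or strand setting. Every deposited value came out as a whole number of reads within 0.01 of a read, which gave the depth of 22804712 to 50996272 reads per library.

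Since the deposited values are normalized, the main test was limma 3.58.1 (trend on the mean) in R 4.3.3 on log2(value + 1), two-sided, with p adjusted by Benjamini-Hochberg across genes with a value of 10 or more in at least 2 libraries. Alternatives on recovered reads used edgeR 4.0.16 and DESeq2 1.42.0, and calls depend on library depth, which sets the precision of low genes. High minus low used the 5 dnOGAh-Tg libraries of 2 weeks, and the difference of code differences used all 10. The length trend is a spline over the longest protein-coding transcript of GENCODE vM21 joined by gene ID, 1 spline per library, an alternative chosen after seeing the data. On simulated data the main test recovered 74% of genes changed by 1 log2 unit and 99% changed by 2. The changed genes had a mean of at least 50, and all genes had the same random spread. That run held no length trend and no other difference between libraries, so these rates need not hold for the real libraries. The members, lists and tests were chosen with earlier results of these data known.

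Named genes were the 12 largest rises and falls among called genes with a mean of at least 50 in 1 group and no overlap, up to 3 members of each list with the smallest p, and a set of fixed genes whatever their values. Predicted gene models were left out of the largest rises and falls. Isg15, Ifit3b, C1qa, Hspa1b, Gm37194 and the genes called in opposite directions at 2 and 24 weeks were named after their values were seen, as was Kcnip2 for its place beside Oga. Some genes are not reported here.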

Additional observations from a re-analysis of the deposited data

Results flagged for a closer look

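High minus low less F14 minus F11 in Control, where no library carried F13, passed the threshold (limma, adjusted over all genes) for 55 genes higher and 23 lower. Among some of the named genes called, this difference of log2 differences was 6.54 for Saa3, 5.37 for Ankrd2, 5.12 for Spp1, 4.78 for Star, 4.65 for Timp1, 4.02 for Nppa, 3.76 for Lgals3 and 2.00 for Irf7. It was -3.19 for Mylk4, -2.69 for Abca12 and -1.86 for Kcnip2. Others called included Chil1 (5.90), Cxcl10 (5.47), Tnc (4.15), Ccl8 (3.84) and Uchl1 (1.76), for which leave-outs of this test are not given. Most of these genes were picked by their high minus low difference, which is part of this test, so their calls are not independent. Leaving out 1 of the 10 libraries ended the call of Nppa and Irf7 in 7 of 10 omissions each, of Spp1 in 6, of Timp1 in 5, and of Saa3, Lgals3 and Mylk4 in 2 each. Ankrd2, Star, Abca12 and Kcnip2 were called in all 10.

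Of 56 groups of 5 libraries of 24 weeks screened, 6 held a value far from the other 4. Chance alone gives about 1 in 20 for values with a normal spread. The screen ran on normalized counts without logs, some of few reads, so that rate need not hold here. The Control libraries of 2 weeks form groups of 2 and 3 by code and were not screened. Among them library 2 read 64.2 for Chil1 against 4.54 to 9.99 in the others, and 86.9 for Timp1 against 14.98 to 24.5. At 24 weeks Spp1 stood at 45.8 in Control library 1 against 6.11 to 12.96 in the other Controls, and Tnc at 149 in the same library against 15.3 to 35.6. Cxcl10 stood at 37.8 in Control library 4 against 1.07 to 8.14, and at 3.29 in dnOGAh-Tg library 1 against 15.97 to 17.1. H1f4 stood at 79.1 in Control library 3 against 36.7 to 47.5, and at 27.6 in dnOGAh-Tg library 4 against 15.1 to 17.9.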

How the results depend on the processing

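The 12 largest rises stayed called without low library 1 and with the length trend removed, while the counts moved with the libraries used. Leaving out 1 library at a time gave 264 to 1431 genes higher and 94 to 1439 lower in high minus low; without low library 1 a single low library is left, whose spread is assumed to be like that of the others. Without a filter 645 were lower, with all 10 libraries in 1 fit 591 and 514, at an adjusted p under 0.01 352 and 199, and with a 2-fold limit 577 and 266. With the transcript length trend removed 782 were higher, and without low library 1 as well 140 and 108; these 2 settings were chosen after seeing the data. The share of fallen genes also lower at 24 weeks was 77.89% at the stricter threshold, 87.04% with length and low library 1 both taken out, and 31.38% to 91.49% over the leave-outs. The difference of code differences gave 87 and 43 with Gm37194 as a covariate, 103 and 165 with the length trend removed, 353 and 208 with DESeq2, and 4 to 235 and 4 to 82 over the leave-outs. Low minus Control gave 17 higher with the F11 Controls only and 0 to 24 over the leave-outs. Uncalled genes changed sign: Myh7 to 0.11 with the length trend removed (0.11 also without low library 1, and -0.32 to 0.0028 over the leave-outs), Gfpt1 to 0.11 and Mthfd2 to -0.10 with both (-0.67 to 0.0031 and 0.0097 to 0.72 over the leave-outs). The cause was not tested.

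The replicate numbers were not taken to pair the samples, since same-numbered libraries did not all deviate together (correlations of -0.0653 to 0.415 at 2 weeks and -0.207 to 0.652 at 24 weeks). With the number as a replicate block the difference of code differences called 261 higher and 304 lower, and the 24-week comparison 1918 and 2002. At 24 weeks each number joined 1 Control and 1 dnOGAh-Tg library of the same title code, whose meaning is not stated, and the block called Spp1 (adjusted p = 0.0237), Lgals3 (0.000486) and Cd68 (0.0204), which were not called without it. Genes of a few reads, such as Saa3 in the low libraries, are limited by depth.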

Other observations

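A few genes were called in opposite directions in high minus low at 2 weeks and in dnOGAh-Tg minus Control at 24 weeks. Ryr3, a calcium release channel of the ryanodine receptor family, stood at 77.5 and 72.3 in the low libraries and at 20.5, 36.1 and 12.5 in the high ones (-1.78, SE 0.42, limma adjusted p = 0.0167). At 24 weeks it stood at 70.0 ± 26.2 (SD, n = 5) in Control and 629 ± 113 in dnOGAh-Tg (3.22, SE 0.24, limma adjusted p = 3.12e-06). Tnnt1, the slow skeletal troponin T, rose by 0.99 at 2 weeks and had a difference of -1.12 at 24 weeks. The others were Ybx2, Plekhh1 and Slc2a4rg-ps, higher and then lower, and Nrn1 and Prune2, lower and then higher.

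Within 1000000 bases of Oga 38 genes were tested, of which 4 were called higher and 2 lower, beside 7.96% and 6.99% of all genes tested. Npm3, 668 bases away, had a difference of 0.33 (adjusted p = 0.231, limma), and Armh3, 33527 bases away, one of -0.29 (adjusted p = 0.204, limma). Gm15491 overlaps Oga on the other strand and rose by 1.98, and without a known strand setting its reads and those of Oga cannot be told apart.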
